A study of Mus musculus with 6 samples.

Results

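The 34 genes examined encode the glucose and lactate carriers, the enzymes of glycolysis, the pyruvate dehydrogenase complex and the citric acid cycle. They were taken by exact gene symbol from a table of 43283 genes, and 34 of 34 were found. Transcript levels were measured by RNA sequencing in mouse muscle stem cells, the Pax7-expressing cells from which skeletal muscle is rebuilt after injury. The cells were sorted from hindlimb muscles of female C57BL/6 mice, aged 8 to 12 weeks in the sample labels and 2 to 4 months in the text on the design. The sort took cells bearing α7-integrin and CD34 and left out cells with CD45, Sca1, CD31 or CD11b. Both groups were cultured for 24 h in a medium with 20% fetal bovine serum, low-glucose medium and F-10. A group of 3 libraries (PGE2 1 to 3) received prostaglandin E2, a lipid mediator released in injured tissue, and a group of 3 (Vehicle 1 to 3) received the solvent DMSO. RNA came from 5000 to 10000 cells and the cDNA was amplified before sequencing. The labels call the libraries biological triplicates without saying whether animals or cultures were separate. A p-value here therefore sets a group difference against the spread between these libraries, whatever the source of that spread, technical sources included. The comparison asks whether PGE2 alters the transcripts of central carbon metabolism in these cells.

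Glycolysis splits glucose into pyruvate in the cytosol. Hexokinase and phosphofructokinase catalyse its early committed steps, and the enzymes from aldolase to pyruvate kinase, called lower glycolysis here, carry the later reactions and yield ATP and NADH. Pyruvate is either reduced to lactate or taken into mitochondria, where the pyruvate dehydrogenase complex turns it into acetyl-CoA for the citric acid cycle. Muscle stem cells are known to rely more on fatty acid oxidation when quiescent and to raise glycolysis when they are activated. Of the regulators known for these genes, HIF1 and MYC bind motifs with the core ACGTG, while cAMP, which PGE2 raises through the receptors EP2 and EP4, acts on CREB, which binds TGACGTCA or its core TGACG.

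Levels are in TPM as deposited by the authors, a measure of abundance that is corrected for transcript length and scaled to the same total in every library, and 3 values in a row belong to libraries 1, 2 and 3 of a group. The depth of sequencing cannot be recovered from this unit and is unknown. Differences between groups are log2 changes, PGE2 minus Vehicle, of log2(TPM + 1), fitted with limma over the 12781 genes that reached 1 TPM in 3 or more libraries, and their 95% intervals are confidence intervals of that fit. This scale understates the change of low genes. The libraries listed between 15400 and 19677 genes above 0, the lowest number being that of PGE2 1, and mitochondrially encoded genes held 20.9% to 33.6% of the TPM. The 9 muscle stem cell and myoblast markers summed to between 674 and 985 TPM, with Pax7, which marks these cells, at 56.7, 47.9 and 33.3 TPM with Vehicle and 66.99, 30.3 and 23.9 TPM with PGE2. Endothelial, leukocyte, glial, pericyte and red cell marker lists each reached at most 19.9 TPM in sum, and the fibro-adipogenic list lay between 26.2 and 51.0 TPM, mostly the collagen gene Col3a1. The endothelial marker Cldn5, the pericyte marker Pdgfrb and the globin genes Hba-a1, Hba-a2, Hbb-bs and Hbb-bt were listed at 0 in all 6 libraries. Other markers of these lists were not at 0. The endothelial marker Emcn was at 15.3 TPM in PGE2 3 and at most 0.87 TPM elsewhere. The smooth muscle marker Acta2 had a mean of 8.47 TPM. The fibro-adipogenic marker Ly6a was at 2.22, 3.38 and 7.92 TPM with Vehicle and 0, 13.55 and 0 TPM with PGE2.

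No difference between PGE2 and Vehicle passed the test for any glycolytic or citric acid cycle transcript that could be tested. Of these 31, 0 reached an adjusted p under 0.05 (limma, Benjamini-Hochberg adjustment over all tested genes), against 0% of all genes. The smallest adjusted p among them was 0.9999. At an unadjusted p under 0.05 the count was also 0 of 31, against 3.63% of all genes. The fitted value was above 0 for 13 transcripts and below 0 for 18, or 41.9% above 0, against 43.9% of all genes. For the median transcript, the 95% confidence interval reached 0.89 on the log2 scale to either side of the fitted change, or 1.85-fold, so a difference of less than that could not be told from 0 for such a transcript with 3 libraries a group. Slc16a3, Pfkl and Pfkm were below the filter and were not tested.

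The 6 libraries did not behave alike, and PGE2 1 stood apart most clearly in the transcripts of lower glycolysis. PGE2 1 held the highest value of the 6 libraries in 18 of the 31 tested transcripts, or 58.1%, while it did so for 30.1% of all tested genes and for 29.5% of the 2147 genes whose mean reached 50 TPM. For lower glycolysis the count was 8 of 8. For the glycolytic transcripts as a whole it was 11 of 16, and for pyruvate dehydrogenase and the citric acid cycle 7 of 15. Outside lower glycolysis, PGE2 1 was below the median of the other 5 libraries for Slc2a1, Pfkp, Pfkfb3 and Ldha (0.595, 0.628, 0.428 and 0.788 times). It was above that median for Hk1, Hk2, Gpi1 and Ldhb. PGE2 1 was also highest for 44.4% of other tested glycolysis genes and 55.6% of the tested muscle stem cell and myoblast markers. The summed level of the 19 glycolytic transcripts was 1682, 2213 and 2032 TPM with Vehicle and 3449, 1479 and 1684 TPM with PGE2. The other 15 transcripts summed to 891, 903 and 924 TPM in Vehicle and to 1079, 840 and 802 TPM in PGE2. PGE2 1 was thus above every Vehicle library in both sums, while PGE2 2 and PGE2 3 were below every Vehicle library in the second sum. The glycolytic sum was 1.89, 2.45 and 2.20 times the other with Vehicle and 3.20, 1.76 and 2.10 times with PGE2. Fitted changes are therefore given with and without PGE2 1. Why this library stood apart was not tested.

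**Figure D1:**
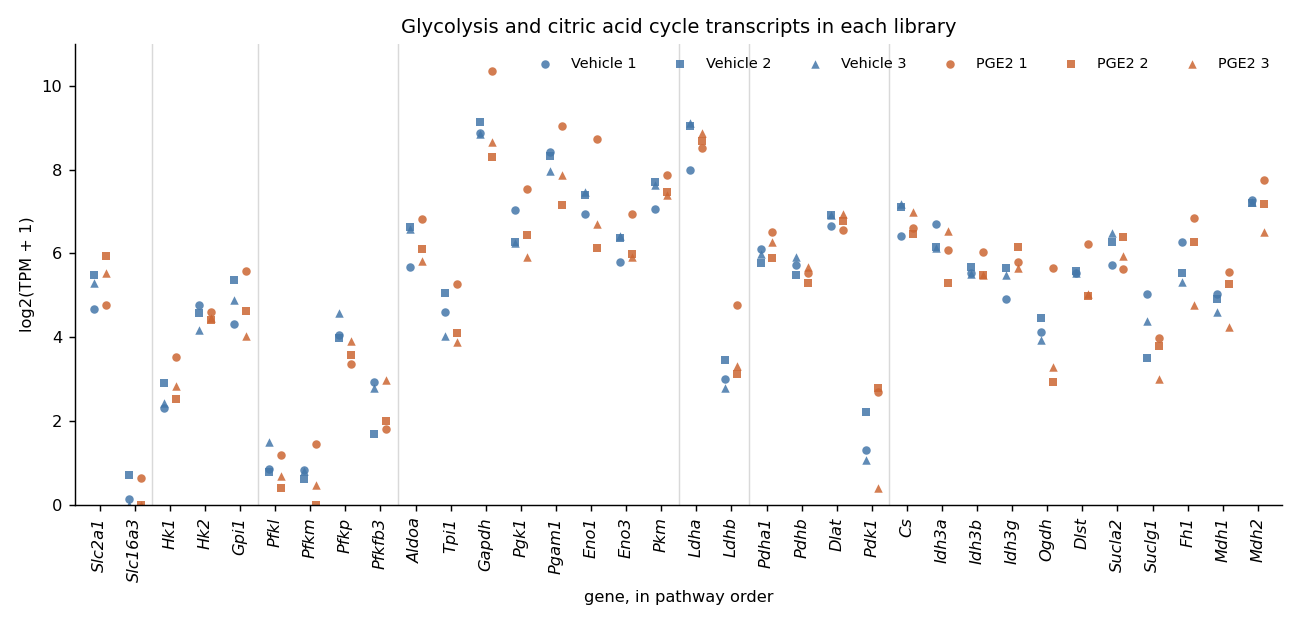
Level of each of the 34 transcripts in each library, as log2(TPM + 1) on the vertical axis, with genes in pathway order and vertical lines between role groups; blue symbols are Vehicle and orange symbols PGE2, with a circle, square or triangle for replicate 1, 2 or 3. PGE2 1, the orange circle, is the highest of the 6 values in 8 of 8 lower glycolysis genes, from Aldoa to Pkm.

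Promoter sequences were examined for the motifs of these regulators. RefSeq promoters on build GRCm38.p6, running from 250 bases before to 50 bases after the gene start, matched 33 of the 34 genes, all but Idh3a. The RefSeq start can differ from the start of the gene in GENCODE M21, by 4329 bases for Ldha and 27467 bases for Sucla2, and which start these cells use was not tested. On either strand, TGACGTCA was present in 3 of 33, those of Ldha, Ogdh and Mdh2, against 1.79% of the 32817 promoters in the table. Its core TGACG, which lies inside TGACGTCA, was in 15 of 33, against 20.79% of all promoters. ACGTG was in 13 of 33, against 19.62%. CACGTG, the E-box that contains ACGTG, was in 2 of 33, those of Pfkm and Ldha, against 7.15%. A match describes the letters of the promoter and shows neither binding nor response. For each of the 33 genes only the promoter nearest its GENCODE start was read, whereas the 32817 are all distinct promoters in the table. They were not matched to the 33 in base composition or expression, so enrichment of a motif was not tested. The 3 promoters with TGACGTCA are printed with that of Pgk1, whose ACGTG sites are set against them, each 5′ to 3′ on the strand of its gene. Capitals mark every match to ACGTG or TGACG on either strand, and hence every CACGTG and TGACGTCA.
Ldha promoter, chr7:46845554-46845853, plus strand: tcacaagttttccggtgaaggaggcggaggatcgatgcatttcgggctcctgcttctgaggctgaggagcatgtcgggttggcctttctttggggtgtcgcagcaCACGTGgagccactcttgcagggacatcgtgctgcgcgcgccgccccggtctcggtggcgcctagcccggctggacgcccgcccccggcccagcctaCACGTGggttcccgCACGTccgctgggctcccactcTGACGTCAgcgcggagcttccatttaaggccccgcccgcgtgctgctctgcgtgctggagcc
Ogdh promoter, chr11:6291409-6291708, plus strand: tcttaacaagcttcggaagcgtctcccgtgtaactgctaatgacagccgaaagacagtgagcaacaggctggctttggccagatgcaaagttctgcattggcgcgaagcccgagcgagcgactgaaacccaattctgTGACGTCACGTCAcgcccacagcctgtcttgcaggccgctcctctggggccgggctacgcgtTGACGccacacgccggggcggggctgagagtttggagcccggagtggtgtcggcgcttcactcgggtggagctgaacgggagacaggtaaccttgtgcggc
Mdh2 promoter, chr5:135778399-135778698, plus strand: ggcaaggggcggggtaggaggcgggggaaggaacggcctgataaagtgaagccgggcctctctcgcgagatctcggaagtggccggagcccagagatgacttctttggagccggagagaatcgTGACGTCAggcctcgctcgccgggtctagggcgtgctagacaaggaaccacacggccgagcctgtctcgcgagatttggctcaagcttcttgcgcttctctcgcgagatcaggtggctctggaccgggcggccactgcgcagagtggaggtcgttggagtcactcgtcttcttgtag
Pgk1 promoter, chrX:106186850-106187149, plus strand: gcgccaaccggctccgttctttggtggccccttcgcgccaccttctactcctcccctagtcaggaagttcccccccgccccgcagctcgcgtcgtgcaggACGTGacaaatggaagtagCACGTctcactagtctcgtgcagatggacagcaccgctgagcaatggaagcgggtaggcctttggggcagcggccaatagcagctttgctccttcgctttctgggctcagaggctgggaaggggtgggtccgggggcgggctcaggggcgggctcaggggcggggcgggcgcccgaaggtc

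The Ldha promoter carried 2 copies of CACGTG and 1 of TGACGTCA. In the Ogdh promoter TGACGTCA overlapped a further TGACG match, and in that of Mdh2 it stood alone. The Pgk1 promoter held 2 matches to ACGTG and none to TGACG. The transcripts of these 4 genes did not share a pattern over the libraries, as the values below show: PGE2 1 was the highest library for Ogdh, Mdh2 and Pgk1 and the second lowest for Ldha.

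For glucose entry and its first steps, no difference exceeded the spread between libraries. Slc2a1, the glucose carrier GLUT1, was at 24.7, 43.9 and 38.5 TPM with Vehicle and 26.1, 60.4 and 45.5 TPM with PGE2. PGE2 2 and PGE2 3 were above all Vehicle libraries and PGE2 1 was below 2 of them. The fitted log2 change was 0.26 (95% interval -0.63 to 1.14), and 0.58 without PGE2 1. It was the 1 tested transcript of the 31 with both PGE2 2 and PGE2 3 above all Vehicle libraries, which held for 7.3% of all genes. Slc16a3, the lactate exporter MCT4, was at or near 0, with 0.10, 0.63 and 0 TPM with Vehicle and 0.55, 0 and 0 TPM with PGE2. The related lactate carrier Slc16a1 (MCT1), named here after its values were seen, had a level of 77.5, 57.4 and 61.6 TPM with Vehicle and 83.7, 49.9 and 52.9 TPM with PGE2.

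Hexokinase traps glucose in the cell as glucose 6-phosphate. Hk2, the form prominent in muscle and in growing cells, had levels of 26.4, 22.8 and 17.1 TPM with Vehicle and 23.2, 20.4 and 21.1 TPM with PGE2. Its PGE2 values all lay within the Vehicle range, and the log2 change was -0.01 (95% interval -0.80 to 0.77), or -0.06 without PGE2 1. Hk1, the widely expressed form, was lower, at 3.96, 6.55 and 4.35 TPM with Vehicle and 10.6, 4.77 and 6.19 TPM with PGE2. Its share of the summed Hk1 and Hk2 TPM was 13.0%, 22.3% and 20.3% with Vehicle and 31.4%, 18.9% and 22.7% with PGE2, so the groups overlapped. The log2 change of Hk1 was 0.42 (95% interval -0.72 to 1.57), or 0.14 without PGE2 1. Gpi1, which turns glucose 6-phosphate into fructose 6-phosphate, was at 18.8, 39.96 and 28.6 TPM with Vehicle and 46.8, 23.7 and 15.4 TPM with PGE2. Its log2 change was -0.10 (95% interval -1.14 to 0.93), and -0.52 without PGE2 1, the library with its highest value.

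Phosphofructokinase, the main control point of glycolysis, was read almost wholly from the Pfkp gene, the platelet form. Pfkp was at 15.6, 14.8 and 22.9 TPM with Vehicle and at 9.31, 10.98 and 14.00 TPM with PGE2, or 17.8 ± 4.45 TPM in Vehicle and 11.4 ± 2.38 TPM in PGE2 (SD, n = 3 each). All 3 PGE2 values were below all 3 Vehicle values, and PGE2 1 was the lowest library. The log2 change was -0.59 (95% interval -1.49 to 0.31), with an unadjusted p of 0.175 and an adjusted p of 0.9999 (limma); without PGE2 1 it was -0.46. Pfkp was the 1 of 31 tested transcripts whose groups did not overlap, or 3.2%, against 8.01% of all tested genes, of which 4.84% were lower with PGE2 and 3.18% higher. That separation depended on the scaling. After quantile normalisation, or after rescaling without the mitochondrially encoded genes, the groups of Pfkp overlapped, and Idh3g was instead the 1 transcript with separate groups.

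The other phosphofructokinase genes were scarce. The liver form Pfkl was at 0.82, 0.72 and 1.83 TPM with Vehicle and 1.29, 0.32 and 0.60 TPM with PGE2, and the muscle form Pfkm at 0.78, 0.54 and 0.75 TPM with Vehicle and 1.74, 0 and 0.40 TPM with PGE2. Of the summed TPM of the 3 genes, Pfkm held 4.52%, 3.36% and 2.94% with Vehicle and 14.1%, 0% and 2.67% with PGE2. Pfkl held 4.76%, 4.48% and 7.18% in Vehicle and 10.45%, 2.83% and 4.00% in PGE2. In both cases PGE2 1 had the highest share and the groups overlapped. Pfkfb3, whose product activates phosphofructokinase, was at 6.63, 2.24 and 5.87 TPM with Vehicle and 2.51, 3.01 and 6.90 TPM with PGE2, with a log2 change of -0.20 (95% interval -1.52 to 1.12), or 0.02 without PGE2 1.

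Lower glycolysis made up most of the glycolytic TPM in every library. Its 8 genes summed to 1323, 1543 and 1356 TPM with Vehicle and to 2933, 936 and 1099 TPM with PGE2. PGE2 1 was far above, and PGE2 2 and PGE2 3 were below, all Vehicle libraries. With all 6 libraries the median log2 change of the 8 genes was 0.02 and 4 of 8 fitted values were above 0. Without PGE2 1 the median was -0.40 and 0 of 8 were above 0, while the median of all genes moved from -0.07 to -0.18 and 37.1% of all genes were above 0. Leaving out PGE2 1 thus turned the sign of 4 of the 8 fitted changes, and each of the 8 turned when at least 1 of the 6 libraries was left out. The median SD over replicates, on log2(TPM + 1), was 0.35 in Vehicle and 0.79 in PGE2 for these 8 genes, against 0.43 and 0.66 for all tested genes.

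**Figure D2:**
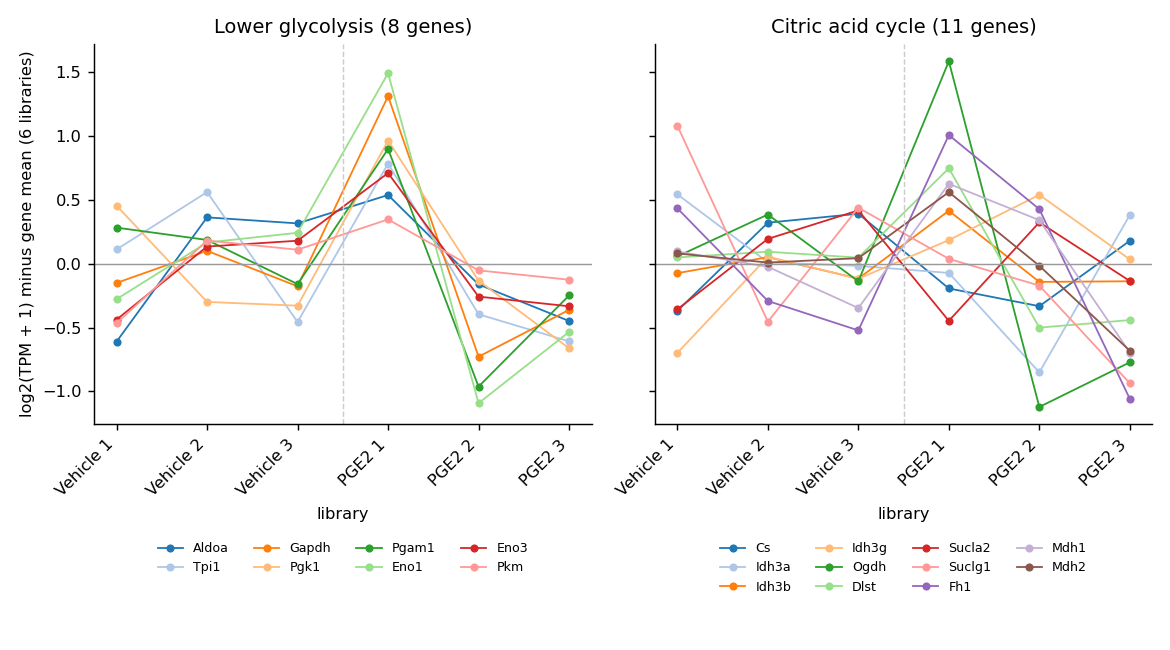
Deviation of each gene from its own mean over the 6 libraries, in log2(TPM + 1), for the 8 lower glycolysis genes (left) and the 11 citric acid cycle genes (right); each point is 1 library, lines join the points of 1 gene and the dashed line separates Vehicle from PGE2. The lower glycolysis genes peak together in PGE2 1, where 8 of 8 are highest, whereas 6 of 11 citric acid cycle genes are highest there.

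Gapdh, which makes the NADH of glycolysis and often serves as a reference gene, was at 471, 560.4 and 462 TPM with Vehicle and at 1299.9, 315 and 406 TPM with PGE2. PGE2 1 was 2.81 times the median of the other 5 libraries, and PGE2 2 and PGE2 3 were below all Vehicle libraries. The means were 498 ± 54.5 TPM in Vehicle and 674 ± 544 TPM in PGE2 (SD, n = 3 each). The log2 change was 0.15 (95% interval -0.92 to 1.22), and -0.47 without PGE2 1. Gapdh alone made up 27.98%, 25.3% and 22.7% of the glycolytic sum with Vehicle and 37.7%, 21.3% and 24.1% with PGE2.

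Eno1, the widely expressed enolase, showed the widest swing among these 8 genes, at 123, 167 and 176 TPM with Vehicle and 421, 69.2 and 102 TPM with PGE2. PGE2 1 was 3.43 times the median of the other 5 libraries and PGE2 2 and PGE2 3 were the lowest libraries. The log2 change was -0.09 (95% interval -1.35 to 1.18). Without PGE2 1 it was -0.86, with an unadjusted p of 0.0228 (limma) that did not pass adjustment. Pgam1, phosphoglycerate mutase, was at 340.4, 318 and 250.2 TPM with Vehicle and 522, 143 and 235 TPM with PGE2. Its log2 change was -0.21 (95% interval -1.18 to 0.77), and -0.71 without PGE2 1. Eno1 and Pgam1 thus shared with Gapdh a high PGE2 1 and a PGE2 2 and PGE2 3 below all Vehicle libraries.

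Pgk1, phosphoglycerate kinase, the first ATP-yielding enzyme of the pathway, was at 129.8, 76.5 and 74.96 TPM with Vehicle and 185, 86.02 and 59.3 TPM with PGE2. PGE2 1 was highest and PGE2 3 lowest, and the log2 change was 0.11 (95% interval -0.85 to 1.08), or -0.34 without PGE2 1. Tpi1, triose phosphate isomerase, was at 23.4, 32.3 and 15.4 TPM with Vehicle and 37.9, 16.2 and 13.8 TPM with PGE2. Aldoa, the muscle-type aldolase, was at 49.8, 98.8 and 95.6 TPM with Vehicle and 112, 68.3 and 55.8 TPM with PGE2. In both, the range of PGE2 included that of at least 2 Vehicle libraries, with log2 changes of -0.15 and -0.05. Without PGE2 1 these were -0.57 and -0.33.

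Pkm, pyruvate kinase, varied least among the 8, at 132, 207 and 197 TPM with Vehicle and 233, 176 and 167 TPM with PGE2. The lowest library was Vehicle 1 and the highest PGE2 1, and the log2 change was 0.11 (95% interval -0.56 to 0.79), or -0.03 without PGE2 1. TPM per gene does not separate its splice forms. Eno3, the enolase of mature muscle, was at 54.8, 81.9 and 84.6 TPM with Vehicle and 123, 62.2 and 58.9 TPM with PGE2, with a log2 change of 0.08 (95% interval -0.73 to 0.90), or -0.25 without PGE2 1. Of the summed Eno1 and Eno3 TPM, Eno3 held 30.9%, 32.9% and 32.4% with Vehicle and 22.6%, 47.3% and 36.5% with PGE2. The Vehicle shares were close together, and the PGE2 shares lay on both sides of them.

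Several of these transcripts have near-identical copies elsewhere in the genome, among which the counting may have divided reads. Transcripts of build GRCm38 (GENCODE M21) that matched a transcript of the set at 90% identity or more over at least 50% of their length numbered 201 in the table, for 12 of the 34 genes. The largest share was that of Pgk1, whose gene lies on chromosome X and whose processed pseudogene Pgk1-rs7 is on chromosome 12. The pseudogene's 1255 bases matched Pgk1 at 100% identity, and its level was 237, 186 and 152 TPM with Vehicle and 340.3, 185 and 134 TPM with PGE2, a mean of 201.86% of that of Pgk1. The level of Pgk1 alone is therefore uncertain. A window of 60 bases across the junction of exons 6 and 7 of Pgk1 is printed to show that the spliced transcript and the intronless copy read alike. It covers bases 612 to 671 of the 1251-base coding sequence and bases 611 to 670 of the copy, both 5′ to 3′, with the last base of exon 6 and the first base of exon 7, and their counterparts in the copy, in capitals.
Pgk1, gene at chrX:106187100-106203699, plus strand: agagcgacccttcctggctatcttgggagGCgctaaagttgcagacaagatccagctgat
Pgk1-rs7, chr12:10898986-10900240, minus strand: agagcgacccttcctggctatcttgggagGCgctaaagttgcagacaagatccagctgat

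Summed with its copy, Pgk1 was at 366, 263 and 227 TPM with Vehicle and 526, 271 and 193 TPM with PGE2, with a log2 change of 0.11, as for the gene alone. Gapdh had 165 pseudogene copies in the table, whose summed mean was 15.53% of the Gapdh mean. With all its copies Gapdh was at 533, 642 and 569.7 TPM with Vehicle and 1413, 404 and 502 TPM with PGE2. PGE2 1 remained the highest library for both after summing.

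For Eno1, the protein-coding retrogene Eno1b, 99.5% identical over the matched stretch, had a level of 89.7, 149 and 143 TPM with Vehicle and 191, 120.3 and 129 TPM with PGE2. The pseudogene Gm4735 added a mean of 12.8 TPM. Together the copies of Eno1 reached 84.92% of its mean. With them Eno1 was at 213, 330.1 and 347 TPM with Vehicle and 636, 192 and 241 TPM with PGE2, and its log2 change turned from -0.09 to 0.09. On this sum the share of Eno3 was 20.5%, 19.9% and 19.6% with Vehicle and 16.2%, 24.5% and 19.7% with PGE2, and its Vehicle mean was 20.0% ± 0.431 against 32.1% ± 1.06 for the genes alone (SD, n = 3). Whether reads of Eno1 were given to Eno1b cannot be told from TPM.

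Smaller copies reached 5% or more of the mean of their gene for Gpi1, Ldhb, Pdhb and Pgam1. Gm1840 was at 41.33% of Gpi1, Gm5514 at 59.52% of Ldhb and Gm6123 at 11.96% of Pdhb. The copies of Pgam1, led by Pgam1-ps2, were at 6.49%. Summing copies of any type left 8 of 8 lower glycolysis genes highest in PGE2 1, as did quantile normalisation and rescaling without the mitochondrially encoded genes.

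**Figure D3:**
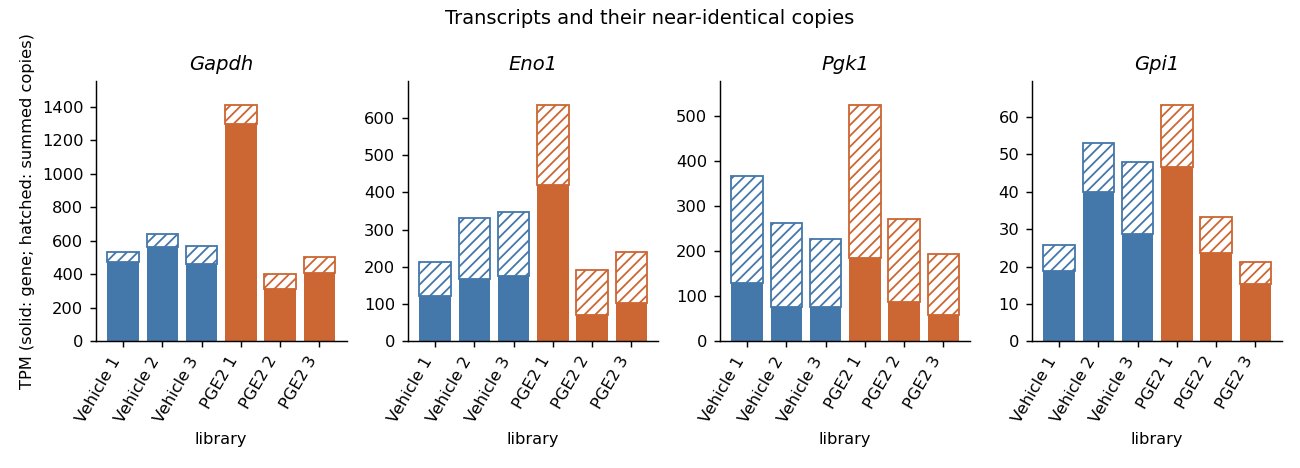
TPM of Gapdh, Eno1, Pgk1 and Gpi1 (solid) with the summed TPM of their near-identical copies stacked on top (hatched) in each library, blue for Vehicle and orange for PGE2; the vertical axes start at 0 and differ between panels. The copies are larger than the gene itself for Pgk1, and the stacked total is highest in PGE2 1 in all 4 panels.

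Lactate dehydrogenase was read mainly from Ldha, the form favoured in glycolytic tissue, whose promoter with 2 CACGTG sites is printed above. Ldha was at 254, 528 and 550.0 TPM with Vehicle and 367, 412 and 466 TPM with PGE2. The 3 PGE2 values lay inside the Vehicle range, whose lowest library was Vehicle 1, and the log2 change was -0.02 (95% interval -0.81 to 0.77), or 0.06 without PGE2 1. PGE2 1 was 0.788 times the median of the other libraries, so Ldha did not share the peak of lower glycolysis. Ldhb, the heart form, was at 7.02, 10 and 5.91 TPM with Vehicle and 26.3, 7.73 and 8.99 TPM with PGE2. It was high in PGE2 1, and the other 2 PGE2 libraries lay within the Vehicle range.

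The log2 change of Ldhb was 0.65 (95% interval -0.55 to 1.86), and 0.14 without PGE2 1. Its share of the summed Ldha and Ldhb TPM was 2.69%, 1.86% and 1.06% with Vehicle and 6.68%, 1.84% and 1.89% with PGE2. The pseudogene Gm5514, 98.2% identical to Ldhb over the matched stretch, was also highest in PGE2 1, at 1.85, 2.84 and 11.1 TPM with Vehicle and 23.4, 0 and 0 TPM with PGE2. Summed with it, the log2 change of Ldhb was 0.28.

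The pyruvate dehydrogenase complex gates the entry of pyruvate carbon into the citric acid cycle. The subunits of its decarboxylase, Pdha1 and Pdhb, had opposite fitted signs. Pdha1 was at 68.3, 53.9 and 62.4 TPM with Vehicle and 90.9, 58.7 and 76.9 TPM with PGE2, with a log2 change of 0.28 (95% interval -0.40 to 0.95), or 0.13 without PGE2 1. Pdhb was at 51.9, 43.6 and 59.2 TPM with Vehicle and 45.2, 38.3 and 50.2 TPM with PGE2, with a log2 change of -0.20 (95% interval -0.88 to 0.48), or -0.22 without PGE2 1. The groups overlapped in both. Dlat, the acetyltransferase core, was at 100.1, 119 and 119 TPM with Vehicle and 93.7, 108 and 123 TPM with PGE2, with a log2 change of -0.07 (95% interval -0.68 to 0.55), or 0.03 without PGE2 1. Pdk1, a kinase that inhibits the complex and a known HIF1 target, was low and scattered, at 1.46, 3.65 and 1.09 TPM with Vehicle and 5.50, 5.90 and 0.32 TPM with PGE2. PGE2 1 and PGE2 2 were above all Vehicle libraries and PGE2 3 below them, and the 95% interval of its log2 change, 0.44 within -1.22 to 2.09, was the widest of the 31. Without PGE2 1 the change of Pdk1 was 0.07.

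The 11 citric acid cycle genes had a median log2 change of -0.13, with 4 fitted values above 0 and 7 below, and -0.19 without PGE2 1. Together with pyruvate dehydrogenase the median was -0.09, and -0.19 without PGE2 1, against -0.07 and -0.18 for all tested genes. The 16 tested glycolytic transcripts had medians of -0.02 and -0.29. With all 6 libraries both medians were within 0.1 of that of all genes. The median SD over replicates of pyruvate dehydrogenase and the cycle was 0.26 in Vehicle and 0.51 in PGE2.

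Cs, citrate synthase, which opens the cycle, was at 85.1, 138 and 145 TPM with Vehicle and 96.3, 87.4 and 125 TPM with PGE2. Its log2 change was -0.23 (95% interval -0.94 to 0.48), or -0.19 without PGE2 1, and Vehicle 1 was lower than the other Vehicle libraries. NAD-dependent isocitrate dehydrogenase, a rate-setting step, has 3 subunits, and their fitted signs differed. The catalytic subunit Idh3a was at 103, 70.8 and 69.4 TPM with Vehicle and 66.8, 38.5 and 91.8 TPM with PGE2, with a log2 change of -0.36 (95% interval -1.19 to 0.47), or -0.41 without PGE2 1. Idh3b was at 45.7, 49.9 and 44.3 TPM with Vehicle and 64.5, 43.5 and 43.7 TPM with PGE2, with a log2 change of 0.09 (95% interval -0.60 to 0.78), or -0.09 without PGE2 1.

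Idh3g, a regulatory subunit, was at 29.04, 49.6 and 43.95 TPM with Vehicle and at 54.5, 69.9 and 48.95 TPM with PGE2, or 40.9 ± 10.6 TPM in Vehicle and 57.8 ± 10.9 TPM in PGE2 (SD, n = 3 each). The groups overlapped by 1 library each way, Vehicle 2 being above PGE2 3. Its log2 change was 0.51 (95% interval -0.24 to 1.25), with an unadjusted p of 0.159 (limma), the smallest of the 31, and an adjusted p of 0.9999. Without PGE2 1 it was 0.54, so that this value, unlike those of lower glycolysis, did not turn on that library.

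Ogdh, the catalytic subunit of oxoglutarate dehydrogenase, resembled Eno1 in its high PGE2 1 and low PGE2 2 and PGE2 3, at 16.4, 20.9 and 14.2 TPM with Vehicle and 49.3, 6.69 and 8.80 TPM with PGE2. PGE2 1 was 3.47 times the median of the other 5 libraries and both other PGE2 libraries were below all Vehicle libraries. The log2 change was -0.20 (95% interval -1.66 to 1.25). Without PGE2 1 it was -1.05, with an unadjusted p of 0.0297 (limma). Dlst, the succinyltransferase of the same complex, was at 45.4, 46.8 and 45.3 TPM with Vehicle and 74.2, 30.7 and 31.98 TPM with PGE2. Its Vehicle libraries were tightly grouped, with PGE2 1 above them and PGE2 2 and PGE2 3 below, and the log2 change was -0.13, or -0.53 without PGE2 1.

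Without PGE2 1, Eno1 and Ogdh were 2 of 31 transcripts at an unadjusted p under 0.05, against 7.72% of all genes in that fit, and the smallest adjusted p of the 31 was 0.579. PGE2 2 and PGE2 3 were both below all Vehicle libraries in 8 of 31 transcripts, namely Gapdh, Pgam1, Eno1, Pfkp, Idh3b, Ogdh, Dlst and Mdh2, against 18.6% of all tested genes. These counts leave out a library chosen after its values were seen.

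**Figure D4:**
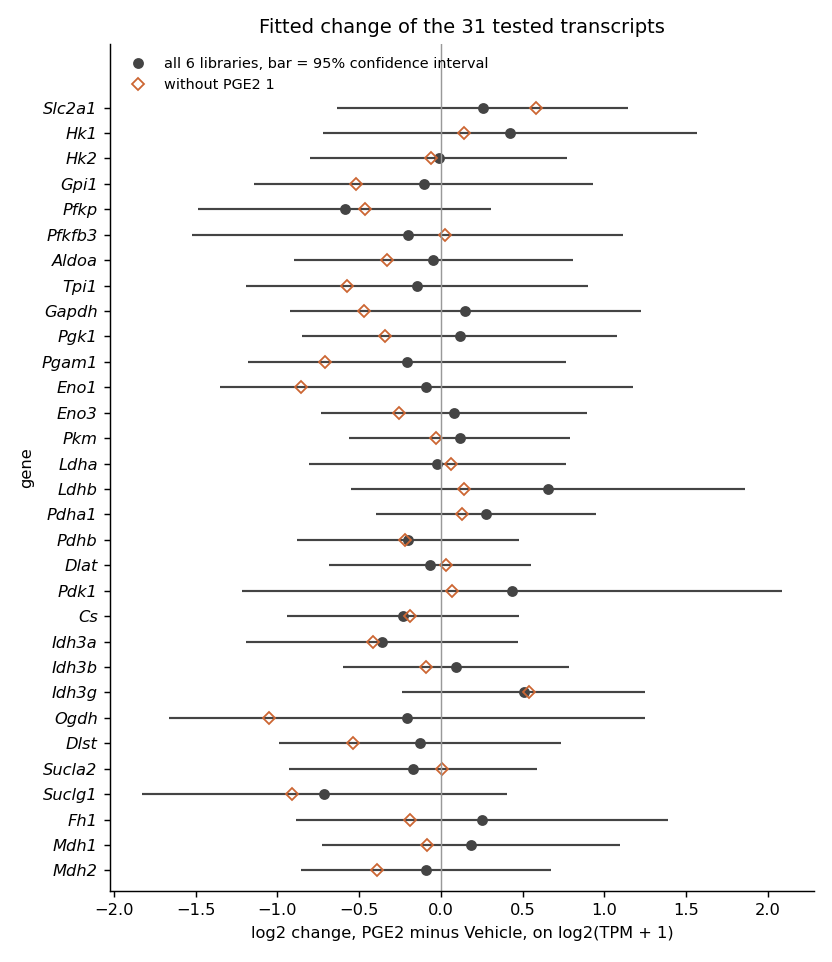
Fitted log2 change, PGE2 minus Vehicle on log2(TPM + 1), of the 31 tested transcripts; filled circles with bars are the values and 95% confidence intervals with all 6 libraries, and open diamonds are the values without PGE2 1. Every interval with all 6 libraries includes 0, and the diamonds of the 8 lower glycolysis genes all lie below 0.

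Succinyl-CoA synthetase was represented by Sucla2, the ATP-forming β subunit, and Suclg1, the α subunit. Sucla2 was at 51.5, 75.96 and 88.8 TPM with Vehicle and 48.3, 83.2 and 60.2 TPM with PGE2, with a log2 change of -0.17 (95% interval -0.93 to 0.59), or 0.01 without PGE2 1. Suclg1 was at 31.8, 10.3 and 19.98 TPM with Vehicle and 14.9, 12.7 and 7.08 TPM with PGE2. Its PGE2 libraries were all below Vehicle 1 and Vehicle 3, while Vehicle 2 lay among them. The log2 change of Suclg1 was -0.71 (95% interval -1.83 to 0.40), the lowest fitted value of the 31, with an unadjusted p of 0.185 (limma), and -0.91 without PGE2 1.

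Fh1, fumarase, was at 76.2, 45.6 and 38.8 TPM with Vehicle and 114, 75.8 and 26.4 TPM with PGE2, and its log2 change of 0.25 (95% interval -0.89 to 1.39) became -0.19 without PGE2 1. Mdh1, the cytosolic malate dehydrogenase of the malate-aspartate shuttle, was at 31.8, 29.2 and 23.1 TPM with Vehicle and 46.4, 37.9 and 17.9 TPM with PGE2. Mdh2, the mitochondrial form that closes the cycle, was at 153, 146 and 149 TPM with Vehicle and 214, 143 and 89.8 TPM with PGE2. The Vehicle values of Mdh2 lay close together, while PGE2 1 was above and PGE2 2 and PGE2 3 below all of them. The log2 change of Mdh2 was -0.09 (95% interval -0.86 to 0.68), or -0.39 without PGE2 1, and that of Mdh1 was 0.18 (95% interval -0.73 to 1.09), or -0.09 without PGE2 1.

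Other genes of the same pathways were read from lists of further members. Of 26 other glycolysis genes 9 could be tested, with 4 fitted values above 0 and 5 below, a median log2 change of -0.05, or -0.21 without PGE2 1, and 0 past the threshold. Of 29 other genes of pyruvate handling and the citric acid cycle 27 could be tested, with 12 above and 15 below, a median of -0.09, or -0.23 without PGE2 1, and 0 past the threshold. In 6 of these 27, or 22.2%, the groups did not overlap, against 8.01% of all genes. At an unadjusted p under 0.05 (limma) the count was 1 of 27, against 3.63% of all genes. Whether these separations held under other scalings, unlike that of Pfkp, was not tested.

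Pdp1, the phosphatase that reactivates pyruvate dehydrogenase, was at 14.3, 8.22 and 4.02 TPM with Vehicle and 14.7, 18.4 and 22.6 TPM with PGE2. Every PGE2 library was above every Vehicle library, though PGE2 1 and Vehicle 1 were close, and the log2 change was 1.12 (95% interval 0.01 to 2.22), or 1.26 without PGE2 1. Its unadjusted p was 0.0485 (limma). Pdk4, a kinase that inactivates the same complex and is named here after its values were seen, was lower in all PGE2 libraries, at 60.2, 43.9 and 53.1 TPM with Vehicle and 28.1, 43.6 and 43.8 TPM with PGE2. PGE2 3 and Vehicle 2 were nearly equal, and the log2 change was -0.45 (95% interval -1.18 to 0.28), or -0.24 without PGE2 1. Acly, which makes cytosolic acetyl-CoA from citrate, was at 42.2, 41.98 and 18.6 TPM with Vehicle and 58.97, 53.8 and 46.9 TPM with PGE2, with a log2 change of 0.70 (95% interval -0.15 to 1.55), or 0.63 without PGE2 1. None of these passed adjustment.

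Suclg2, the GTP-forming β subunit of succinyl-CoA synthetase and the partner of Suclg1, was at 27.4, 24.9 and 31.4 TPM with Vehicle and 22.7, 8.29 and 17.3 TPM with PGE2. All PGE2 values were below all Vehicle values, and the log2 change was -0.85 (95% interval -1.80 to 0.10), or -1.14 without PGE2 1. The unadjusted p of Suclg2 was 0.0734 (limma). Me3, a mitochondrial malic enzyme, was at 1.96, 1.11 and 2.10 TPM with Vehicle and 8.20, 2.53 and 2.91 TPM with PGE2, all PGE2 values being above all Vehicle values, with a log2 change of 0.90 (95% interval -0.40 to 2.21), or 0.47 without PGE2 1. Idh2, the NADP-dependent mitochondrial isocitrate dehydrogenase, named after its values were seen, was at 11.3, 10.03 and 10.2 TPM with Vehicle and 18.9, 12.7 and 12.8 TPM with PGE2.

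The pentose phosphate pathway, which branches from the first product of hexokinase, shared the peak of lower glycolysis in PGE2 1: 6 of its 7 tested genes were highest in that library, or 85.7%. Its median log2 change was -0.12 with 0 past the threshold, and -0.35 without PGE2 1. The HIF1 target list outside metabolism had 15 of 17 genes in the table, 8 fitted above 0 and 7 below, and a median of 0.10, or -0.07 without PGE2 1; 3 of 15 were highest in PGE2 1. In 1 of these 15, or 6.7%, the groups did not overlap, against 8.01% of all genes. This was Mxi1, a MYC antagonist, at 2.16, 2.34 and 0.86 TPM with Vehicle and 4.18, 4.45 and 2.36 TPM with PGE2. PGE2 3 and Vehicle 2 were nearly equal, and the log2 change was 0.76 (95% interval -0.48 to 1.99), or 0.67 without PGE2 1. Its unadjusted p was 0.201 (limma). The list of metabolic regulators induced by CREB had 5 of 9 genes tested, 3 above 0 and 2 below, and a median of 0.46, or 0.0053 without PGE2 1. Nr4a2, a nuclear receptor gene known to respond to cAMP, was at 7.31, 15.6 and 15.9 TPM with Vehicle and 40.9, 27.1 and 35.6 TPM with PGE2, with a log2 change of 1.40 (95% interval 0.48 to 2.32), or 1.27 without PGE2 1. Its unadjusted p was 0.00672 and its adjusted p 0.9999 (limma).

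Markers of differentiated muscle, a state with its own use of glycolysis, were lower in sum in the PGE2 libraries. Their 19 listed genes summed to 62.7, 55.3 and 38.7 TPM with Vehicle and to 15.7, 22.4 and 19.9 TPM with PGE2, and Ttn, the giant sarcomere protein, made up much of this. Tnnc2 and Mb were listed at 0 in all libraries. Of the 5 genes that could be tested, 5 had fitted values below 0. In 3 of them all PGE2 values were below all Vehicle values, against 4.84% of all tested genes. They were Tnnt1, Acta1 and Ttn, with an unadjusted p of 0.00633, 0.0374 and 0.0211 (limma), and 0 passed adjustment. Tnnt1 was at 2.09, 4.37 and 1.82 TPM with Vehicle and 0 TPM in all PGE2 libraries. It reached the filter through its Vehicle libraries alone, so its p-value and its place in these counts are no support for a difference. The genes of the list that were not tested were low and went both ways. Acta1 was at 3.79, 6.71 and 6.82 TPM with Vehicle and 0.90, 3.47 and 0.81 TPM with PGE2. The 10 proliferation markers summed to between 776 and 950 TPM in Vehicle and to 978, 722 and 717 TPM with PGE2, but 3 of 10 were highest in PGE2 1, against 30.1% of all genes, and 3 of 10 were lowest there. The high sum in PGE2 1 came largely from the proliferation antigen Mki67, at 189.8, 140.8 and 102.5 TPM with Vehicle and 271, 98.6 and 89.3 TPM with PGE2. Of the 10 markers, 9 had fitted values below 0, and 10% were above 0, against 43.9% of all genes. Their median log2 change was -0.17, or -0.23 without PGE2 1, and 0 passed adjustment. Cdk1 was the 1 of 10, or 10%, whose groups did not overlap, lower with PGE2, against 8.01% of all genes. In bulk RNA, fewer cells of a type and less RNA per cell cannot be told apart. The part of either list in the values of the metabolic transcripts was not tested.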

How the data were processed

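RNA sequencing was read from 6 libraries, 3 per group. The values the authors deposited are TPM, held in a single table; the unit is not in its header and was inferred from the values, which sum to between 992357 and 995645 per library. STAR, RSEM and the build mm10 are named in the submitters' processing notes; for versions and annotation, the sources used here say nothing. RNA was extracted with a Qiagen micro kit and amplified with NuGEN Ovation v2, per the labels' protocols. TPM keeps no depth, so no count test or counting interval was possible.

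The 12781 genes that reached 1 TPM in 3 or more libraries were compared on log2(TPM + 1) with limma 3.58.1 in R 4.3.3 (mean-trend variance prior, two-sided, Benjamini-Hochberg adjustment over all tested genes, threshold 0.05). Alternatives covered the pseudocount, filter, scaling, variance prior, library weights, replicate block, each library left out, and summing near-identical copies, found with BLAST at 90% identity over 50% of the copy. Summing copies of every type was added after the values were seen. The members and lists were chosen with earlier results of these data known. Outside the members, genes were named if their groups did not overlap (at most 4 per list by smallest p). Named as well were the most abundant markers and those at 0. Exceptions are stated where they occur, apart from Pax7, Ly6a and Mki67, which met none of these rules. Of 201 list entries 197 matched a symbol.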

Additional observations from a re-analysis of the deposited data

How the results depend on the processing

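With every alternative 0 of the 31 tested members passed the threshold. Over all genes, 1 gene passed with a robust variance prior, and leaving out 1 library gave 0 to 1 genes. Over all tested genes, the deviations of same-numbered libraries from their group means were hardly correlated (-0.06, -0.04 and 0.07). With 3 libraries a group this cannot exclude that same-numbered libraries shared a source. With the replicate number as a block 0 genes passed.

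Of the alternative log2 changes of members, 443 kept their sign and 52 reversed. The sign held throughout for 9 of 31 members: Cs, Hk1, Idh3a, Idh3g, Ldhb, Pdha1, Pdhb, Pfkp and Suclg1. Leaving out 1 library reversed 21 members, of which 11 turned without PGE2 1. The log2 changes of these 21 over the 6 fits that leave out a library ran as follows: Aldoa -0.36 to 0.16, Dlat -0.16 to 0.031, Dlst -0.53 to 0.090, Eno1 -0.86 to 0.44, Eno3 -0.25 to 0.27, Fh1 -0.19 to 0.84, Gapdh -0.47 to 0.55. They also ran as follows: Gpi1 -0.52 to 0.25, Hk2 -0.18 to 0.12, Idh3b -0.094 to 0.19, Ldha -0.38 to 0.17, Mdh1 -0.085 to 0.58, Mdh2 -0.39 to 0.23, Ogdh -1.05 to 0.31. The last were Pfkfb3 -0.59 to 0.027, Pgam1 -0.71 to 0.22, Pgk1 -0.34 to 0.47, Pkm -0.089 to 0.23, Slc2a1 -0.0075 to 0.58, Sucla2 -0.39 to 0.0094, Tpi1 -0.57 to 0.12. The other 10 kept their sign, over these ranges: Cs -0.47 to -0.091, Hk1 0.14 to 0.64, Idh3a -0.64 to -0.024, Idh3g 0.28 to 0.66, Ldhb 0.14 to 0.96, Pdha1 0.13 to 0.44, Pdhb -0.32 to -0.10, Pdk1 0.024 to 1.22, Pfkp -0.73 to -0.40, Suclg1 -1.12 to -0.35.

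Quantile normalisation reversed Hk2 (0.028), Aldoa (0.019) and Ldha (0.017). Library weights reversed Pfkfb3 (0.26), Gapdh (-0.13), Eno3 (-0.10), Pkm (-0.032), Pdk1 (-0.13), Idh3b (-0.019) and Mdh1 (-0.0087), and copies of any type, added after the values were seen, reversed Eno1 (0.090); the cause was not tested. Pdk1 has no value with the 5 TPM filter. The differences between the groups in isozyme share moved by less than 1 SD of the PGE2 libraries under the alternatives run. That SD includes PGE2 1 and is wide, so this does not show that the differences held. In PGE2 2 and PGE2 3 the shares of Pfkm (0% and 2.67%) and Pfkl (2.83% and 4.00%) were below all Vehicle shares. Those of Eno3 (47.3% and 36.5%) were above all Vehicle shares. The shares themselves did not hold either. With copies of any type the Vehicle mean of Eno3 went from 32.1% to 20.0% and that of Ldhb from 1.87% to 2.88%. Without PGE2 1 the difference in the share of Ldhb went from 1.60 to -0.0041 percentage points. With 3 libraries a group and no depth in TPM, low transcripts such as Pfkl, Pfkm, Pdk1 and Slc16a3 are the least certain.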
